A study of Mus musculus with 37 samples.

Results

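The clonotypes described here are rearranged T cell receptor beta (TRB) genes whose complementarity-determining region CDR3, the loop made by the joining, carries hydrophobic amino acids at both residue 6 and residue 7, counting the first cysteine as residue 1. Members were all listed clonotypes with a CDR3 of 12 to 16 residues in which both positions held 1 of the 9 amino acids A, V, I, L, M, F, W, Y or C. The rule used the CDR3 sequence and no read count. It found 42149 of the 1578107 clonotypes of that length, and the whole series listed 1704980 clonotypes of all lengths. The other 1535958 clonotypes of 12 to 16 residues served as the comparison and are called the others. A further 5703 clonotypes of that length, whose CDR3 does not begin with cysteine, entered neither set.

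Each library came from genomic DNA of a lymph node cell suspension of 1 mouse, 37 mice in all, so reads count rearranged genes rather than transcripts. Of these mice, 32 carried MMTV-PyMT and 5 were of genotype FVBN, labelled WTNT. MMTV-PyMT is a transgene in which the mouse mammary tumour virus promoter drives polyoma middle T antigen in mammary epithelium. Here d105 and d95 stand for the age of the mice in days. All MMTV-PyMT mice analysed here had received PTX, at 10 mg/kg by intravenous injection every 5 days from an age of 85 days. The PLX+PTX groups (6 mice at d105, 3 at d95) also received PLX3397 (pexidartinib, an inhibitor of the CSF1 receptor) in chow at 40 mg/kg per day from day 80. The groups labelled PLX+PTX+aPD-1_R (6 mice at d105, 5 at d95) and PLX+PTX+aPD-1_NR (4 and 3), called R and NR here, received in addition the PD-1 antibody RMP1-14, 1.0 mg per mouse from day 87 and then 0.5 mg every 5 days. The PTX groups held 2 mice at d105 and 3 at d95. All 5 WTNT mice were d105, with no PLX3397, PTX or PD-1 antibody listed for them. The labels do not spell out R, NR, WTNT or PTX, and the protocol also names control chow and an isotype control antibody without giving the mice that received them. A d105 library held 1090573 to 2831566 reads and a d95 library 90648 to 917752 reads. The depths of the 2 days did not overlap, so age and sequencing yield cannot be told apart. The shallowest library, d95 NR replicate 1, held 58 members, against 314 to 2273 in the other 36 libraries. Genomic DNA holds no expression markers with which the tissue label could be checked, and a larger share of reads can come from more cells of a clone or from better amplification, which cannot be told apart.

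During T cell development a variable (TRBV), a diversity (TRBD) and a joining (TRBJ) segment are joined, and bases are trimmed and added at both junctions. The middle of the CDR3, where residues 6 and 7 lie, faces the bound peptide, and hydrophobic residues there have been linked with self-reactive receptors and with regulatory T cells. TRBD segments are rich in guanine and often encode glycine. TRBD2 can encode tryptophan or leucine in some reading frames, whereas the frames of TRBD1 encode more polar residues.

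The following are member sequences read from the deposited files. Capitals mark codons 6 and 7. The first 6 are the members found in the most libraries, called public members here, each in the nucleotide form found in the most libraries.
TRBV3 TRBJ1-2 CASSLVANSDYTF: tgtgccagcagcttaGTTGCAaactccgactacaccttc
TRBV1 TRBJ1-1 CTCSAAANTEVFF: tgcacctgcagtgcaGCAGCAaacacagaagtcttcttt
TRBV3 TRBJ2-2 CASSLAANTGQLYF: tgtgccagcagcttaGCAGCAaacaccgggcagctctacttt
TRBV3 TRBJ1-1 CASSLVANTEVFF: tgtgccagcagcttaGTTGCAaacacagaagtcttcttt
TRBV3 TRBJ2-7 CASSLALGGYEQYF: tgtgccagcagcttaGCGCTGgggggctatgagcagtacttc
TRBV3 TRBJ2-7 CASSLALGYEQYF: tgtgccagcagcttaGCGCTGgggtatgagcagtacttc

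The next 4 are members that held the most reads of any member in their groups, each in the nucleotide form with the most reads, and they carry the pairs YW, AI, FL and LL.
TRBV24 TRBJ2-7 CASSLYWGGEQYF: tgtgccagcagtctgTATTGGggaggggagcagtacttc
TRBV19 TRBJ2-5 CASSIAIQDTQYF: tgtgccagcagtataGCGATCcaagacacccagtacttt
TRBV24 TRBJ2-3 with phenylalanine and leucine: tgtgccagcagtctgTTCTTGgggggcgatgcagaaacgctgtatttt
TRBV4 TRBJ2-7 with 2 leucines: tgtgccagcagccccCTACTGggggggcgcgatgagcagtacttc

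By the segment ends in the deposited files, few bases of codons 6 and 7 lacked a segment in the 6 public members. These ends were not checked against germline sequences, so bases added at a junction can count as segment bases. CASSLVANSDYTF had 1 of the 6 bases assigned to its TRBV segment and 5 to its TRBJ segment. It had 0 bases between these segment ends. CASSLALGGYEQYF had 5 of the 6 bases assigned to TRBV3 and 1 to TRBD2, also with 0 bases between segment ends. Among the abundant members the pattern differed: in the TRBV24 TRBJ2-3 member 4 of the 6 bases were assigned to no segment, and the TRBV4 TRBJ2-7 member had 4 from TRBD2 and 2 from no segment.

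Members made up 2.67% ± 0.08 (SD, n = 37) of the clonotypes of 12 to 16 residues, each clonotype counted once, with a range of 2.50% to 2.81% over the libraries. By cloneCount, the deposited number of reads, they held 2.64% ± 0.14 of the reads (2.45% to 2.95%). A hydrophobic residue was present at position 6 in 18.0% ± 0.4 of clonotypes and at position 7 in 20.9% ± 0.3. Both together were rarer than the product of these shares: within clonotypes of the same length the observed share was 0.702 ± 0.020 of the product (0.668 to 0.747, below 1 in all 37 libraries), and within the same length, TRBV and TRBJ segment it was 0.717 ± 0.025. Hydrophobic pairs stood at residues 4 and 5 in 0.147% ± 0.027 of clonotypes, at 5 and 6 in 11.0007% ± 0.234, at 8 and 9 in 3.65% ± 0.15 and at 9 and 10 in 5.42% ± 0.18. The share at residues 7 and 8, 2.63% ± 0.16, overlapped that at 6 and 7.

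The share depended on CDR3 length. It was 2.27% ± 0.31 at 12 residues, 2.03% ± 0.20 at 13, 2.30% ± 0.15 at 14, 3.05% ± 0.20 at 15 and 4.63% ± 0.27 at 16 (n = 37 each). Just outside the rule, the same pair was present in 7.40% ± 1.24 of CDR3s of 11 residues and in 5.85% ± 0.92 of those of 17 residues. The lowest share thus lay at 13 residues, with higher shares on both sides.

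Members and others differed in the segments assigned to these codons. Of the 6 bases of codons 6 and 7, TRBD segments accounted for 33.4% ± 1.7 in members and 61.9% ± 1.1 in others with the members' length distribution. TRBV accounted for 18.6% against 10.998%, TRBJ for 8.69% against 5.87%, and bases assigned to no segment for 39.2% ± 1.5 against 21.2% ± 0.5. Each of these 4 differences had the same direction in 37 of 37 libraries. The whole junction of members held 4.23 ± 0.14 inserted bases against 3.58 ± 0.06, and 4.97 ± 0.25 TRBD bases against 6.84 ± 0.17, again in the same direction in 37 of 37 libraries. Inserted bases are counted here as bases between the aligned segment ends. Added bases that the deposited files place within a segment end count with that segment and not as inserted. TRBD2 was assigned in 53.7% ± 2.8 of members and 38.0% ± 1.5 of others, TRBD1 in 12.2% ± 1.0 and 43.5% ± 0.7, and no TRBD in 34.1% ± 2.5 and 18.5% ± 1.0. Counted the other way, 4.04% of clonotypes with TRBD2, 4.29% of those with no TRBD and 0.757% of those with TRBD1 were members.

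**Figure D1:**
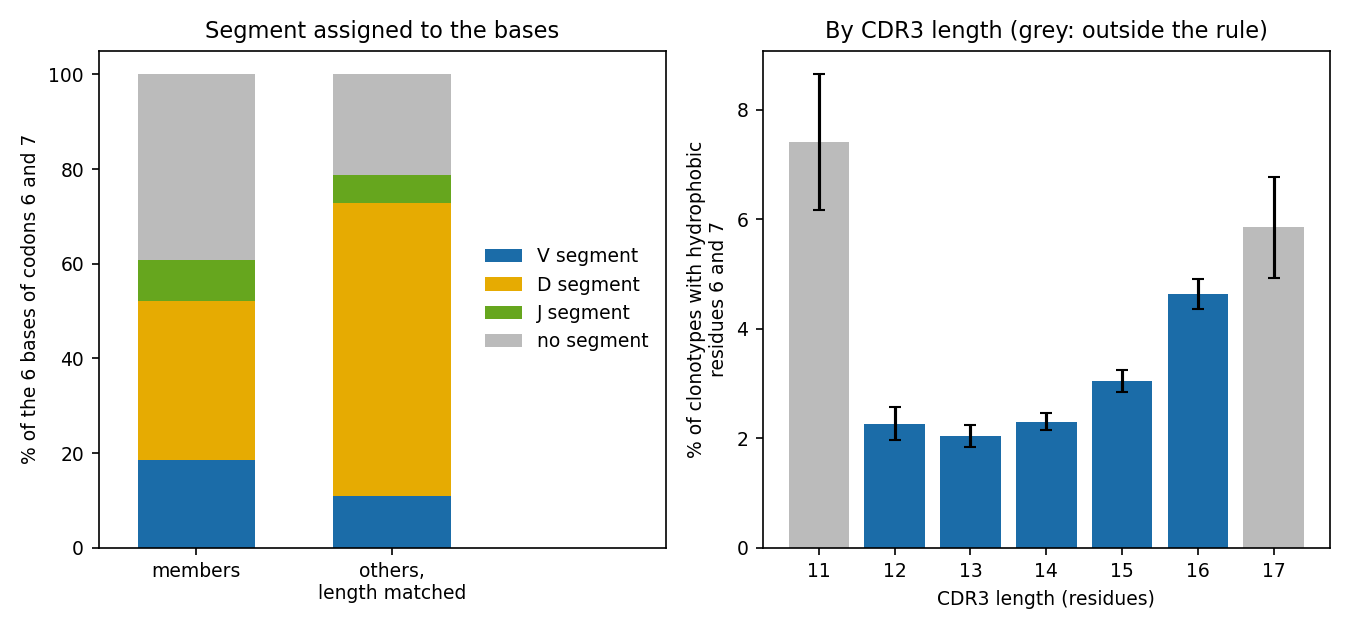
The left panel plots the percent of the 6 bases of codons 6 and 7 assigned to each segment, as means over 37 libraries, for members and for others weighted to the members' lengths. The right panel plots the percent of clonotypes with hydrophobic residues 6 and 7 by CDR3 length (bars, mean; whiskers, SD over 37 libraries), lowest at 13 residues (2.03%) and higher outside the rule's limits (grey).

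The residues beside the pair also differed from the others. Residue 5 was hydrophobic in 67.9% ± 2.0 of members and 45.2% ± 0.7 of others, and residue 8 was glycine in 55.0% ± 3.0 against 42.7% ± 1.2, each higher in 37 of 37 libraries. A charged residue at position 5 was present in 5.54% ± 1.25 of members and 10.2% ± 0.3 of others. A cysteine at residue 6 or 7 was rare, in 236 members (0.560%). A cysteine anywhere between the first and last residue was present in 14.0% of members and 16.1% of others. TRBV1, whose printed member begins CTCSA, made up on average 13.5% of members and 16.1% of clonotypes. The values beside the pair were matched on length but not on segments, and the cysteine shares on neither.

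Of the 81 possible hydrophobic pairs 80 were seen. The most common, written as residue 6 followed by residue 7, was YW at 0.284% ± 0.048 of all clonotypes of 12 to 16 residues (n = 37), or 4444 members. AL followed at 0.189% ± 0.029, VW at 0.185% ± 0.041, AW at 0.159% ± 0.028 and VL at 0.151% ± 0.029. The next pairs were YL at 0.133%, AA at 0.120%, VA at 0.111%, LL at 0.0995% and LW at 0.0935%, and each of these lay within the spread of its neighbour in this order. Tryptophan was the commonest residue 7 of members (32.2% ± 2.9), then leucine (25.3% ± 1.7). At residue 6 tyrosine (22.9% ± 1.9), alanine (22.4% ± 1.9) and valine (20.9% ± 2.4) overlapped within their spread.

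The pairs differed in the segments their bases were assigned to. TRBD accounted for 66.7% of the bases of YW and 56.7% of those of AW, but 9.50% of those of AA and 11.997% of those of VA. In AL and YL the largest part was assigned to TRBV, 46.3% and 43.2%. AA and VA drew on TRBJ for 23.0% and 19.2% of their bases and on no segment for 51.4% and 55.8%. LL carried 5.43 inserted bases on average, against 3.42 for YW, and 9.69% of its merged clonotypes were found in more than 1 library, against 16.5% for YW and 21.4% for VW. Grouped by chemistry, pairs of 2 aromatic residues (F, W or Y) made up 0.453% ± 0.070 of clonotypes, pairs with 1 aromatic residue 1.15% ± 0.09 and pairs without any 1.07% ± 0.06, in 7110, 18251 and 16788 members. Their shares found in another library were 39.4% ± 6.8, 37.3% ± 3.7 and 36.2% ± 2.9, which overlap in their spread between libraries. Differences between these classes within a library were not computed.

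Segment use separated members from others. Tests were run for segments that averaged 0.5% of clonotypes or more, 12 TRBV and 12 TRBJ segments. TRBV13 segments were nearly absent from these libraries, with 224 clonotypes of TRBV13-2 in all, so nothing is said of them. Among TRBV segments, members were most frequent in TRBV24 (4.50% ± 0.40 of its clonotypes, 3.59% to 5.47%), TRBV3 (3.54% ± 0.39), TRBV20 (2.87% ± 1.30) and TRBV19 (2.65% ± 0.37). They were least frequent in TRBV29 (1.49% ± 0.46), TRBV5 (1.80% ± 0.30), TRBV4 (1.83% ± 0.38) and TRBV26 (1.89% ± 0.48). TRBV24 supplied on average 28.3% ± 2.9 of a library's members and 16.8% of its clonotypes of 12 to 16 residues, and TRBV3 supplied 18.1% ± 2.7 and 13.7%.

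The TRBJ segments separated by cluster. The 6 TRBJ2 segments tested all had a higher mean member share than the 6 TRBJ1 segments: TRBJ2-3 (3.25% ± 0.26), TRBJ2-5 (3.23% ± 0.35), TRBJ2-1 (3.05% ± 0.37) and TRBJ2-4 (3.04% ± 0.33) were highest, and TRBJ1-5 (1.13% ± 0.84), TRBJ1-3 (1.21% ± 0.39), TRBJ1-4 (1.41% ± 0.44) and TRBJ1-1 (1.63% ± 0.31) lowest. In the genome TRBD2 lies downstream of the TRBJ1 cluster and next to the TRBJ2 cluster. Of segment pairs, TRBV24 with TRBJ2-5 had the highest member share (5.45%, 2337 of 42860 clonotypes) and TRBV4 with TRBJ1-3 the lowest (0.481%, 14 of 2912).

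Matched on CDR3 length, 23 of the 24 segments differed between members and others (limma on the log2 odds ratio of each library against 0, adjusted p under 0.05, 95.8% called), 10 with a higher and 13 with a lower odds in members. These tests are not independent of the rule, because TRBV and TRBJ bases form part of codons 6 and 7, which define members. The odds ratio of TRBV24 was 1.99 (log2 0.99 ± 0.03 SE, above 0 in 37 of 37 libraries, adjusted p = 1.72e-29). TRBV3 followed at 1.48 (log2 0.57 ± 0.04, 37 of 37, adjusted p = 1.99e-17). TRBV5 stood at 0.620 (log2 -0.69 ± 0.04, below 0 in 37 of 37, adjusted p = 1.66e-19) and TRBJ1-3 at 0.539 (log2 -0.89 ± 0.07, below 0 in 36 of 37, adjusted p = 5.67e-14). Of the TRBJ2 segments, only TRBJ2-2 had a lower odds in members, 0.930 (log2 -0.10 ± 0.04, below 0 in 28 of 37, limma adjusted p = 0.00752). Weighted by cloneCount, 20 segments were called. TRBJ2-4 at 0.0452 (limma adjusted p = 0.433), TRBJ2-1 at 0.0213 (limma adjusted p = 0.711), TRBV19 at -0.0156 (limma adjusted p = 0.714) and TRBV30 at -0.35 (limma adjusted p = 0.102) were then not called as higher. TRBV19 also did not pass with nothing added (limma adjusted p = 0.151). For the rare segments the value depended on the 0.5 added to each cell of the table. The log2 odds ratio of TRBV20 was 0.59 in all libraries and 0.27 in the deeper d105 libraries. That of TRBV30 was 0.54 and 0.13 (limma adjusted p = 0.129 at d105), and with nothing added the TRBV30 member share minus that expected from length was -0.272 points (limma adjusted p = 0.0905). TRBV23, the segment not called, stood at log2 0.08 (limma adjusted p = 0.438), but at -0.94 by cloneCount (limma adjusted p = 0.00134), and with nothing added its member share minus that expected was -0.679 points (limma adjusted p = 5.66e-05).

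**Figure D2:**
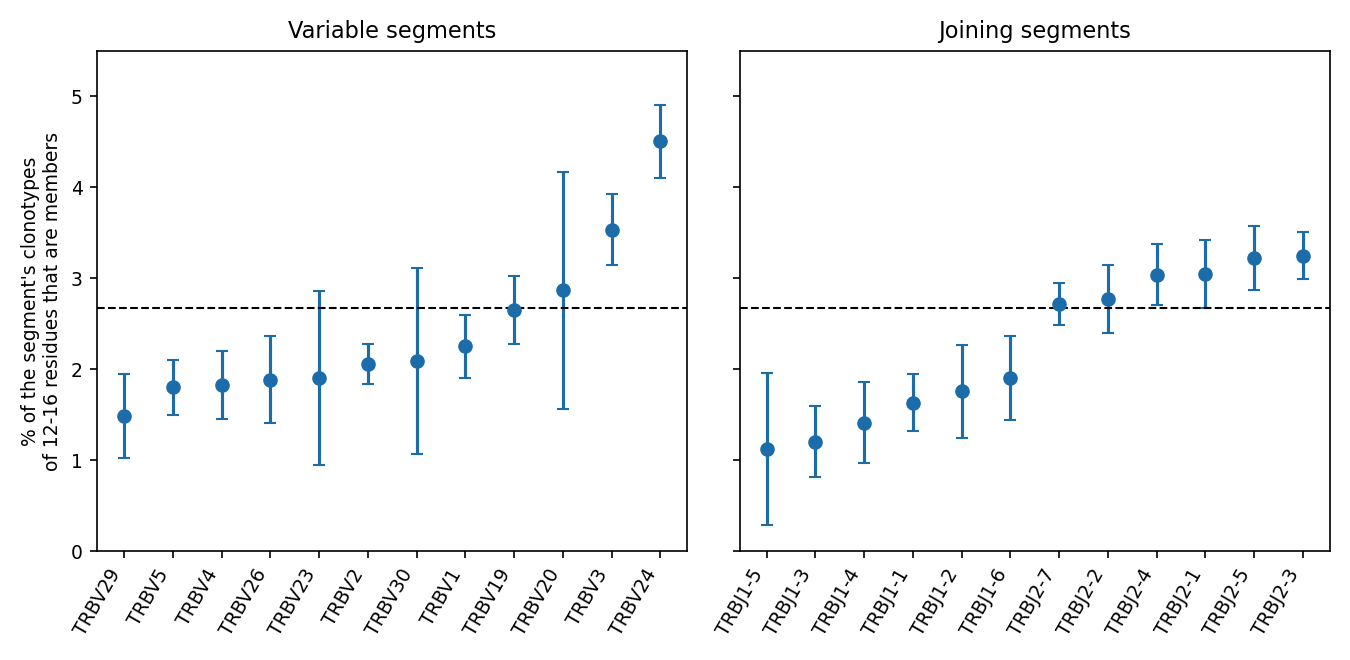
Percent of each segment's clonotypes of 12 to 16 residues that were members, for 12 TRBV segments (left) and 12 TRBJ segments (right), each sorted by the mean (points, mean over 37 libraries; whiskers, SD; dashed line, 2.67% for all clonotypes). TRBV24 and TRBV3 lie above the line, and all TRBJ1 segments lie below it.

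The shares by length differed between segments. Members made up 2.41% of TRBV24 clonotypes of 12 residues, 3.37% at 14 and 9.81% at 16 residues (2967 of 30240). With TRBJ2-1 and TRBJ2-3 the highest share lay at 12 residues, 8.02% and 7.35%, against 1.72% and 1.51% at 13. With TRBJ2-7 it ran from 1.89% at 12 to 4.53% at 16 residues. The order of the TRBJ clusters did not hold at 13 residues. There TRBJ1-6 (4.63%), TRBJ1-2 (2.83%) and TRBJ1-1 (2.53%) lay above all TRBJ2 segments, which ran from 1.27% (TRBJ2-2) to 2.11% (TRBJ2-7). The remaining TRBJ1 segments ran from 0.765% (TRBJ1-5) to 1.92% (TRBJ1-4).

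A smaller share of members than of others was found in several mice. In each library, clonotypes with the same segments and amino acid CDR3 were merged, and 37.3% ± 3.2 of the members (n = 37, 33.5% to 52.6%) were found in at least 1 other library, against 49.8% ± 2.8 of others of the same length. The difference was -12.6 percentage points ± 2.3, and members were lower in 37 of 37 libraries. It was not particular to residues 6 and 7. For clonotypes with hydrophobic residues 7 and 8 the difference was -14.1 points ± 1.9, lower in 37 of 37 libraries. Some clonotypes belong to both sets. No p is given because 1 shared clonotype enters several libraries. Classes of clonotype were set side by side without matching on length, which averaged 14.0 residues with neither residue hydrophobic and 14.3 with both. The share was 53.3% ± 3.0 with neither, 52.0% ± 2.9 with residue 7 alone, 47.1% ± 2.5 with residue 6 alone and 37.3% with both. The classes with neither residue and with residue 7 alone overlapped in their spread between libraries. Each library gives both values, and their difference within libraries was not computed. Members carried more inserted bases, as given above. With others matched on the number of inserted bases as well as on length, the difference was -8.24 points ± 2.24, lower in 36 of 37 libraries, and matched on segments and length it was -13.6 points ± 1.9.

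**Figure D3:**
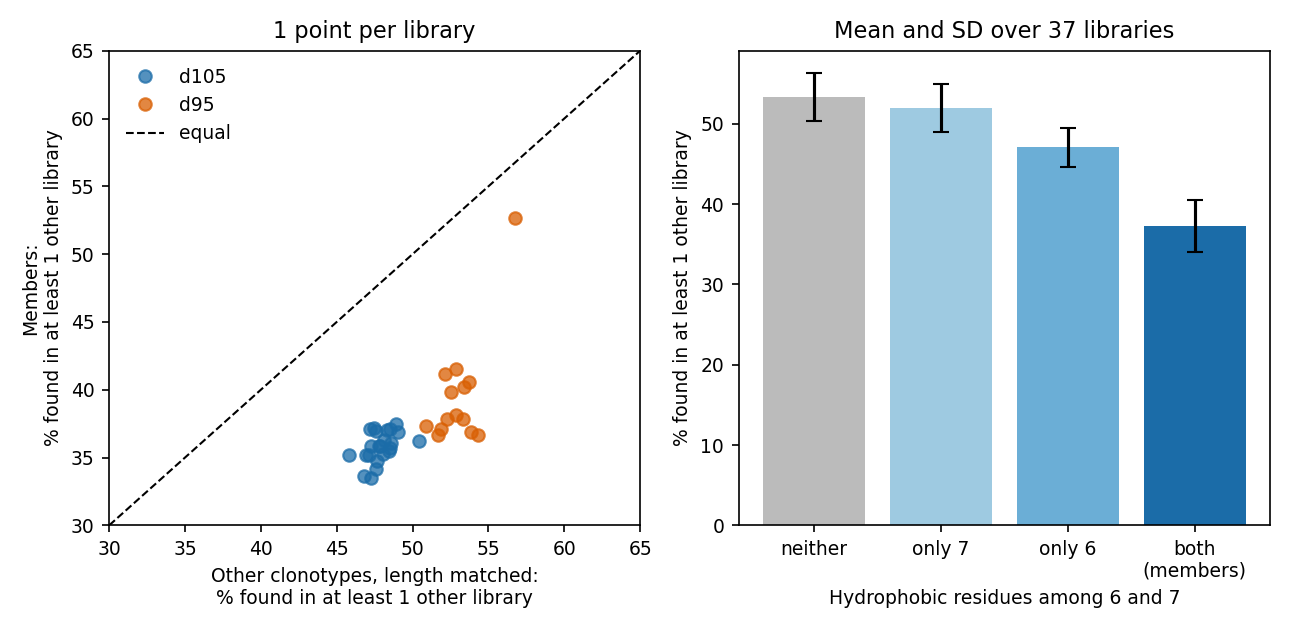
Left, percent of members (y axis) against percent of length-matched others (x axis) found in at least 1 other library, 1 point per library, coloured by day, with the line of equality. Right, the same percent for 4 classes by hydrophobic residues 6 and 7, not matched on length (bars, mean, and whiskers, SD over 37 libraries). All 37 points on the left lie under the line, and the class with both residues is lowest at 37.3%.

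Merged over all libraries there were 30299 distinct members and 879305 distinct others. Of the members, 4508 (14.9%) were found in 2 or more libraries, against 20.9% of others, and 16 members (0.0528%) against 2382 others (0.271%) in at least 50% of the libraries. No member was found in more than 26 libraries, whereas 3 others were found in all 37. A member had 1.25 nucleotide forms on average and an other 1.46. The 16 members found in at least 50% of libraries had 9.19 forms on average, against 14.2 for the 2382 others.

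The 6 most widely shared members, whose sequences are printed above, came from TRBV3 (5) and TRBV1 (1), and none from TRBV24. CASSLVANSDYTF was found in 26 libraries and 10 nucleotide forms. At d105 it was present in all of the 6 R, 4 NR, 2 PTX and 5 WTNT mice but in 2 of 6 PLX+PTX mice. At d95 it was present in all 3 PLX+PTX mice, 2 of 5 R, 1 of 3 NR and 1 of 3 PTX mice. It held 0.00183% to 0.0193% of the reads in the d105 R and NR libraries, and 0.0288% at its highest, in d95 PTX replicate 2. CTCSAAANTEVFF was found in 24 libraries and 12 forms, and the other 4 in 23 libraries each. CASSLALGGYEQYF had the most forms, 17.

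Members were few among the largest clones. The largest member of a library ranked 6th to 188th by cloneCount among the clonotypes of 12 to 16 residues, with a median rank of 44, and 0 to 4 of the 100 largest clonotypes of a library were members. Over the 37 libraries, members made up 1.65% of the 100 largest clonotypes and 2.15% of the 1000 largest, against 2.67% of all. These ranks were not matched on CDR3 length or segments. Among the 1000 largest, a d105 library held 10 to 28 members and a d95 library 19 to 34. In d95 NR replicate 1 the 1000 largest were drawn from only 2268 clonotypes. The largest share of reads was 0.139% (95% Wilson interval 0.117% to 0.165%, 126 of 90648 reads) for a TRBV24 TRBJ2-7 member with tyrosine and isoleucine in d95 NR replicate 1, found in no other library. The intervals cover counting error only, since PCR reads without molecular identifiers are not independent molecules. In the d105 groups the largest members held 0.0464% (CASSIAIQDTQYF in R replicate 3), 0.0251% (TRBV24 TRBJ2-5 with 2 tryptophans, NR replicate 2), 0.0417% (the TRBV24 TRBJ2-3 member printed above, PLX+PTX replicate 1), 0.0309% (the TRBV4 TRBJ2-7 member, PTX replicate 2) and 0.0164% of reads (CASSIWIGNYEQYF with TRBV19 and TRBJ2-7, WTNT replicate 5). At d95 they held 0.0348% (TRBV24 TRBJ2-2 with tyrosine and phenylalanine, R replicate 5), 0.0438% (TRBV1 TRBJ2-3 with valine and tryptophan, PLX+PTX replicate 2) and 0.0469% (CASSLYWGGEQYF, PTX replicate 3). Of these 9, 7 were found in 1 to 3 libraries: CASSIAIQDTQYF had 1137 reads in R replicate 3, 36 in NR replicate 1, 30 in PTX replicate 1 and 0 in the other 34 libraries. More widely shared were the TRBV1 TRBJ2-3 member in 13 libraries and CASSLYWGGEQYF in 10.

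By mean reads per clonotype, members were slightly larger than others of the same length and library. The log2 ratio was 0.03 ± 0.05 (SD, n = 37), a 1.02-fold difference, above 0 in 25 of 37 libraries (2-sided permutation test of signs, 100000 resamples, p = 0.00054). This small difference depended on the measure. With others matched on segments as well, the log2 ratio was -0.01 (permutation p = 0.215). With the deposited normalized clone count, which rescales each segment pair, it was -0.11, below 0 in 35 of 37 libraries (permutation p = 1e-05, the smallest these resamples can give). It was 0.02 in the d105 libraries (permutation p = 0.0723) and 0.05 in the d95 libraries (permutation p = 0.00355).

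The study's design implies 8 comparisons: R against NR, aPD-1 added to PLX+PTX (R and NR together), and PLX3397 added to PTX, each on both days, MMTV-PyMT against WTNT at d105, and d105 against d95 within the 4 treatments. Comparisons that use the same group share its mice. MMTV-PyMT against WTNT also sets drug-treated mice against mice with no drug listed, so genotype and treatment cannot be told apart. Nothing in the labels pairs mice, and p-values measure the spread between these mice. The d105 MMTV-PyMT mice carry mouse numbers in a lower and a higher block, whose meaning the labels do not give. The higher block holds all NR and PTX mice, 4 of the 6 R mice and 2 of the 6 PLX+PTX mice, so block and group partly coincide. For the share counted once, the share by cloneCount, the clone size ratio and the difference in sharing, none of the 32 exact permutation tests passed an adjusted p of 0.05. The smallest p that the exact permutation test can give was 0.1 in PLX3397 added to PTX at d95, so that comparison could not pass. It was 0.0357 in the same comparison at d105 and 0.0179 in R against NR at d95. In such small groups a test that does not pass does not show equal groups. Within the higher block the share counted once differed by -0.0263 points in R against NR (all mice, -0.0183) and by 0.00705 points in PLX3397 added to PTX (all mice, -0.024), and no test of the 4 measures passed there, with fewer mice still.

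The share counted once varied little between groups. At d105 the values of R were 2.71%, 2.60%, 2.67%, 2.66%, 2.67% and 2.52%, those of NR were 2.50%, 2.79%, 2.64% and 2.70%, and those of PTX 2.66% and 2.74%. PLX+PTX lay between 2.59% and 2.75% with a median of 2.67%, and WTNT at 2.79%, 2.66%, 2.73%, 2.73% and 2.68%. At d95 the values of R ran from 2.52% to 2.81% (median 2.64%). NR stood at 2.56%, 2.62% and 2.75%, PLX+PTX at 2.76%, 2.73% and 2.65%, and PTX at 2.62%, 2.81% and 2.59%. All groups of a day overlapped. The smallest p was that of MMTV-PyMT against WTNT, 2.66% ± 0.08 (n = 18) against 2.72% ± 0.05 (n = 5), a difference of -0.0518 points (exact permutation test, p = 0.163, adjusted p = 0.675).

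**Figure D4:**
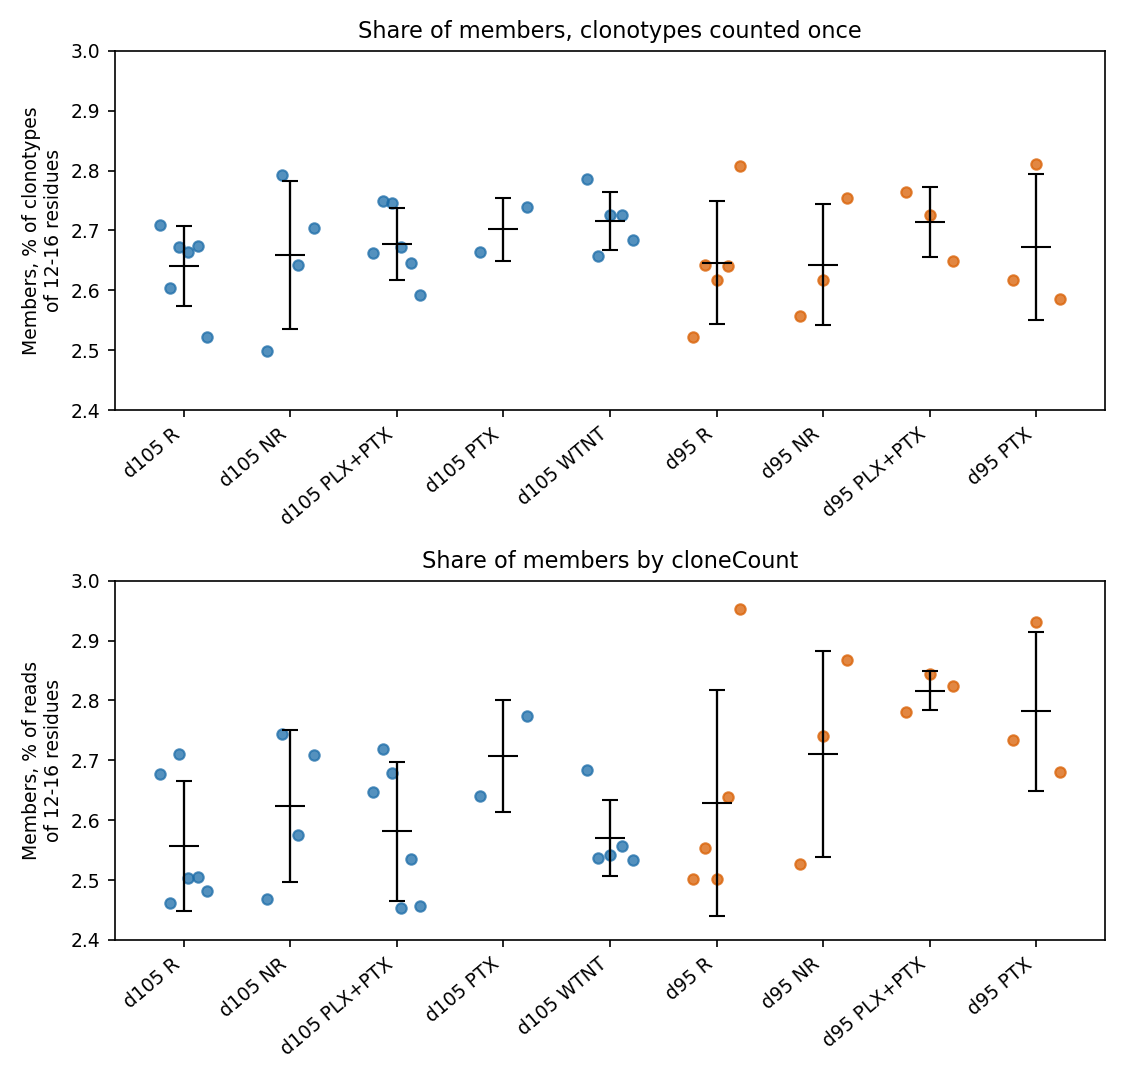
Percent of clonotypes (top, counted once) and of reads (bottom, by cloneCount) of 12 to 16 residues that were members, 1 point per mouse, in 9 groups (black line, mean; whiskers, SD; blue, d105; orange, d95). The y axes do not start at 0. All libraries lie between 2.50% and 2.81% in the upper panel and between 2.45% and 2.95% in the lower one.

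By cloneCount the members held 2.56% ± 0.11 of reads in d105 R (n = 6), 2.62% ± 0.13 in NR (n = 4), 2.58% ± 0.12 in PLX+PTX (n = 6), 2.71% ± 0.09 in PTX (n = 2) and 2.57% ± 0.06 in WTNT (n = 5). At d95 they held 2.63% ± 0.19 in R (n = 5), 2.71% ± 0.17 in NR, 2.82% ± 0.03 in PLX+PTX and 2.78% ± 0.13 in PTX (n = 3 each). The mean of the 4 treatments was 2.62% at d105 and 2.73% at d95, a difference of -0.117 points (permutation within treatments, p = 0.0183, adjusted p = 0.293). With the hydrophobic set narrowed to V, I, L, M, F, W and Y, the difference was -0.199 points and passed (exact permutation, adjusted p = 0.00108). With the normalized clone count it was -0.0141 points (exact permutation, adjusted p = 0.906).

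The log2 clone size ratio of members over others was 0.03 ± 0.04 in the 18 MMTV-PyMT mice at d105 and -0.03 ± 0.02 in the 5 WTNT mice. WTNT values ran from -0.05 to 0.0031, inside the MMTV-PyMT range of -0.06 to 0.08. The difference of 0.06 did not pass (permutation test, p = 0.00788, adjusted p = 0.252). It passed only without d105 PLX+PTX replicate 4, the deepest in clonotypes, at 0.06 (exact permutation, adjusted p = 0.0377).

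**Figure D5:**
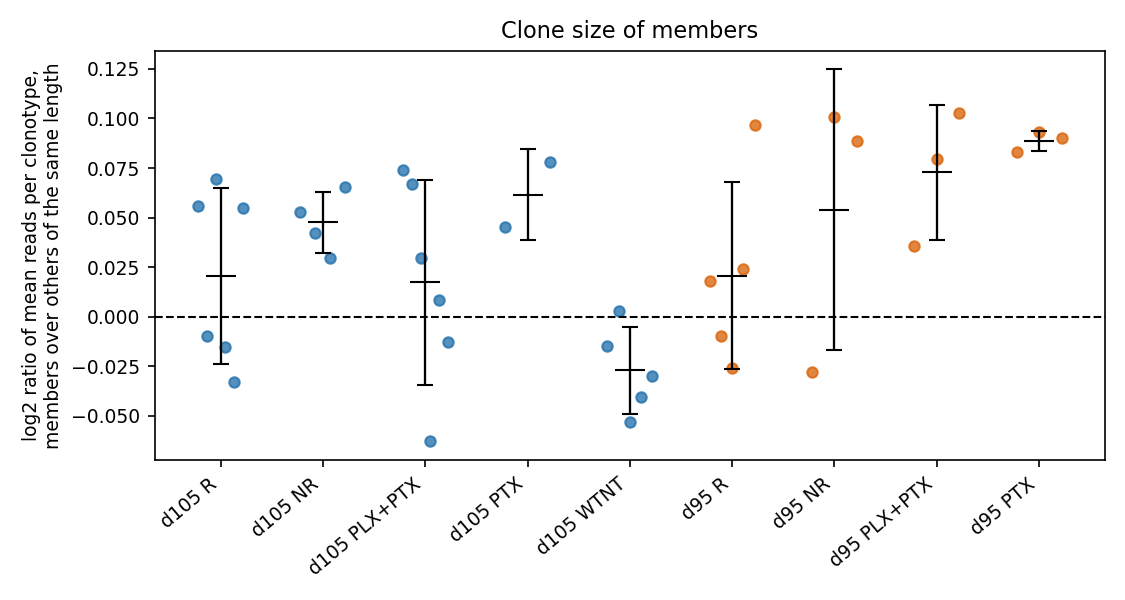
Log2 ratio of the mean reads per clonotype of members over others of the same CDR3 length, 1 point per mouse, in 9 groups (black line, mean; whiskers, SD; blue, d105; orange, d95; dashed line, equal size). The WTNT mice lie between -0.05 and 0.0031, within the range of the MMTV-PyMT mice of the same day.

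The share of members found in another library was lower than that of others in each of the 9 groups. At d105 the group means of the difference were -12.02 points (R), -12.3 (NR), -11.4 (PLX+PTX), -13.2 (PTX) and -12.2 (WTNT). At d95 they were -14.3 (R), -10.7 (NR), -13.9 (PLX+PTX) and -14.3 (PTX). The NR value rested on the shallowest library, whose difference was -4.10 points against -14.7 and -13.1 in the other 2 mice. R minus NR at d95 was -3.65 points with it (exact permutation, p = 0.107) and -0.374 points without it (exact permutation, p = 0.619).

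In the fits across segments, limma compared the log2 odds that a clonotype of a segment was a member, for 24 segments in each comparison. Of these, 1 was called in PLX3397 added to PTX at d105 (4.17% called), 1 in d105 against d95 (4.17%) and 0 in the other 6 comparisons (0% called, with 8 of their 144 segment tests at an unadjusted p under 0.05). In the first, TRBV26 clonotypes were members less often in PLX+PTX (2.19%, 1.89%, 1.60%, 1.67%, 1.87% and 1.53%) than in PTX (2.46% and 2.60%), with no overlap. The log2 odds differed by -0.53 ± 0.12 SE (limma adjusted p = 0.00984). The PTX shares rested on 49 of 1994 and 28 of 1076 clonotypes, and without PTX replicate 2 no segment was called. Both PTX mice came from the higher block of mouse numbers, and the 2 PLX+PTX mice of that block had 1.60% and 1.67%. At d95 the TRBV26 difference had the opposite sign, 0.313 points with nothing added (limma adjusted p = 0.993). The d95 values overlapped: 2.22%, 2.83% and 1.27% in PLX+PTX, and 1.47%, 3.04% and 0.879% in PTX. Between days, TRBV30 members fell by 0.73 on the log2 odds scale (SE 0.20, limma adjusted p = 0.0325), from a d95 base of 0 to 6 members among 11 to 168 clonotypes per library. With nothing added, the difference in TRBV30 member share was -0.657 points (limma adjusted p = 0.595).

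For the residue pairs, all pairs of residues 6 and 7 with a mean share of at least 0.05% were fitted together, 17 of them members among 201 to 204 pairs. No member pair was called in any comparison by limma on log2 of the percent plus 0.01, with 8 of 136 member tests at an unadjusted p under 0.05. Over all pairs, 0.995% were called between MMTV-PyMT and WTNT, 3.96% between days and 0% in the other 6 comparisons. The nearest members were AW between days, 0.25 ± 0.08 SE higher in log2 at d105 (limma adjusted p = 0.053), and LA in PLX3397 added to PTX, with -0.62 ± 0.15 (limma adjusted p = 0.0591). edgeR on clonotypes per pair also called 0 member pairs in each of the 8 comparisons.

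For single clonotypes, the test took those present in 50% or more of a fit's libraries, on log2 of (normalised CPM + 10). Of 5161 such clonotypes at d105, 40 were members, of 953 at d95, 4, and of 2358 over both days, 13. None of these members was called by limma in any comparison, with 10 of 185 member tests at an unadjusted p under 0.05, and edgeR on cloneCount called 0. Over all tested clonotypes, 5.3% were called between days, 0.21% in R against NR at d95, 0.105% in PLX3397 added to PTX at d95 and 0% in the 5 other comparisons. The most widely shared member, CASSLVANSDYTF, differed by 0.77 ± 0.35 SE in log2 when aPD-1 was added to PLX+PTX at d105, which did not pass (limma adjusted p = 0.999). At d95 the same difference was -1.15 ± 1.01 SE (limma adjusted p = 0.829).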

How the data were processed

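Genomic DNA from lymph node cell suspensions of 37 mice was amplified over rearranged TRB genes and sequenced, 1 library per mouse. The authors deposited 1 table per library with the segments, CDR3 and cloneCount of each clonotype, and per the file headers the deposited cloneCount is a count of reads. The normalized clone count and nb clone count in the deposited files are scores that rescale the count by segment pair. The tool that called clonotypes, its version and its reference were not given in the sources used here.

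The members and lists were chosen with earlier results of these data known. Groups follow the labels for genotype, treatment and day. Group means of 4 measures in 8 comparisons were compared by exact permutation tests, 2-sided, within treatments between days, with Benjamini-Hochberg adjustment over 32 tests. Segments, residue pairs and shared clonotypes were fitted with limma 3.58.1 (R 4.3.3), with all groups of a day in 1 fit, each mouse weighing the same within an arm and each treatment the same between days. edgeR 4.0.16 quasi-likelihood tests were alternatives, and the threshold was an adjusted p of 0.05. In counts simulated for d105 R against NR, limma recovered 92.0% of 200 clonotypes changed 4-fold among 5161, with 10 false calls. Real shared clonotypes can be absent from a library, and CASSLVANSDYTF ran from 0 to 357 reads. The recovery therefore holds for the simulated counts, and that in the real data was not measured.

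Named in the text are the 4 segments with the highest and the 4 with the lowest member share of each kind and those called, the 10 commonest member pairs and any called, and the 6 members in the most libraries with the largest of each group. LA and other values near the threshold were chosen after they were seen. Libraries held 90648 to 2831566 reads. Read shares of 1 library carry 95% Wilson intervals. Publicness was counted over the 37 libraries, and 83676 reads per library were kept in the thinned alternative.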

Additional observations from a re-analysis of the deposited data

Results flagged for a closer look

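In groups of 4 to 10 mice, 20 combinations of group and measure were looked at for a mouse far from the rest, a gap that chance gives in about 1 of 20, and 2 were found. The share of members by cloneCount was 2.68% in d105 WTNT replicate 1, against 2.53% to 2.56% in the other 4 WTNT mice. The difference in sharing between libraries, members minus others, was -13.8 points in d105 NR replicate 4, against -11.99 to -11.7 points in the other 3 mice of that group.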

How the results depend on the processing

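No paired analysis was possible because the replicate numbers are only names given by accession and pair no mice. The share counted once had 0 called comparisons under all its alternatives, and the share by cloneCount had 1 with the narrower residue set. The clone size ratio had 0 to 1 called when single libraries were left out. The difference in sharing had 1 called with the limit of 50% of the libraries (d105 against d95, 1.89 points, exact permutation, adjusted p = 2.36e-06) and 1 with residues 7 and 8 (2.54 points, adjusted p = 0.0431); at d95 R minus NR turned to 1.51 and 1.41 points under these. Over members and others of a library, the log2 clone size ratio reversed to -0.11 with the normalized clone count and to -0.0103 with matched segments, and was 0.0129 at residues 7 and 8 (permutation p = 0.233). The difference in sharing moved to -3.22 points at 50% of the libraries and to -8.24 with matched inserted bases, chosen after seeing the data. With residues 7 and 8 it was -14.1 points.

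Member pairs called in PLX3397 added to PTX at d105 were 1 without the filter on share, 1 with a pseudocount of 0.1%, and 0 to 1 when single libraries were left out; between days they were 0 to 2. Segments called in PLX3397 added to PTX were 0 by cloneCount and 0 to 2 when single libraries were left out. Between days they were 9 without the filter on share, 0 by cloneCount, 0 with nothing added (chosen after seeing the data) and 0 to 2 when single libraries were left out. The causes were not tested. Depth limits the d95 values, which rest on 58 to 750 members per library.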
